A study of Mus musculus with 12 samples.

Results

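Eosinophil genes were followed in cultured mouse bone marrow that carried a Hoxa9 vector with or without a form of Meis1. The 5 genes were Prg2, Epx and Prg3, which encode proteins of the eosinophil granule, and Il5ra and Ccr3, which encode receptors of the cell surface. They were chosen by name among the 22296 gene symbols of the arrays, and all 50 of the 1256831 probe sets that name only 1 of them were used on all 12 arrays. HOXA9+MDHD cells carried Hoxa9 and Meis1 from which the homeodomain, the part that binds DNA, had been deleted. HOXA9+MEIS1 cells carried Hoxa9 and full-length Meis1. HOXA9+MIY cells carried Hoxa9 and the empty MIY vector, so Hoxa9 was shared by all groups. The cells were an uncloned primary culture from the marrow of female C57B/6 mice 12 weeks old that had received 5-fluorouracil (5-FU), a drug that kills cycling cells and spares early progenitors. The genes were delivered with retroviral MSCV constructs, and the medium contained serum, IL3, SCF and IL6, with no IL5 named in the labels. Each group had 2 arrays after 4 weeks and 2 after 3 weeks of culture. The series describes 4 independent experiments for each condition, without stating whether week 4 and week 3 arrays share a culture.

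Eosinophils are granulocytes that arise in the marrow from myeloid progenitors. They store cationic proteins in large granules and release them at sites of parasite infection or allergic inflammation. Interleukin 5 drives their growth and survival through a receptor made of Il5ra and the shared beta chain Csf2rb, and eotaxins draw them into tissue through Ccr3. Prg2 encodes major basic protein, the core of the granule, Prg3 encodes its close relative major basic protein 2, and Epx encodes eosinophil peroxidase. Gata1, PU.1 and C/EBP proteins are the factors best known for the transcription of eosinophil genes.

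Values are RMA log2 signals, and a gene value is the median polish of the probe sets that passed a filter on dim signals, set at log2 6.26. Of the 50 probe sets of the 5 genes, 23 passed, 6 of 7 for Prg2, 11 of 16 for Epx, 4 of 9 for Prg3, 1 of 14 for Il5ra and 1 of 4 for Ccr3. The values of Il5ra and Ccr3 therefore rest on 1 probe set each. The filter used the mean over all arrays, so HOXA9+MIY alone could carry a probe set past it. Of the passing Prg2 and Epx probe sets, only 5369815 and 5354104 had both Meis1 means under the filter. Prg2 5369815 averaged 4.89 in HOXA9+MDHD, 6.12 in HOXA9+MEIS1 and 8.51 in HOXA9+MIY, and Epx 5354104 averaged 5.88, 5.98 and 7.91. Their differences, -3.63 and -2.03 in HOXA9+MDHD and -2.40 and -1.93 in HOXA9+MEIS1, entered the gene values. These sizes rest on signal under the filter. With the filter level as a floor, they were at least 4.78- and 3.07-fold lower in HOXA9+MDHD. In HOXA9+MEIS1 they were at least 3.99- and 2.94-fold lower. The arrays correlated at 0.965 to 0.990 over the named probe sets. Meis1 averaged log2 9.15 ± 0.226 in HOXA9+MDHD, 9.38 ± 0.124 in HOXA9+MEIS1 and 6.80 ± 0.126 in HOXA9+MIY (SD, n = 4 arrays each), high in both groups labelled with it. Cd34, a surface marker of the progenitors named in the labels, averaged 11.00, 11.09 and 9.85 in the same groups. A gene was called at an adjusted p under 0.05 over 20711 genes. In these bulk RNA samples fewer cells of a type and less RNA per cell cannot be told apart.

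The promoters of 4 of the 5 genes are shown so that granule and receptor genes can be set side by side. They run from 250 bases before to 50 bases after the gene start (RefSeq, GRCm38.p6), 5′ to 3′ along the gene's strand, and capitals mark GATA spellings on either strand. Prg3 is at chr2:84987965-84988264 on the plus strand, Epx at chr11:87875487-87875786 on the minus strand, Il5ra at chr6:106748988-106749287 on the minus strand and Ccr3 at chr9:124021721-124022020 on the plus strand. Prg2 was not in the table used here.
Epx: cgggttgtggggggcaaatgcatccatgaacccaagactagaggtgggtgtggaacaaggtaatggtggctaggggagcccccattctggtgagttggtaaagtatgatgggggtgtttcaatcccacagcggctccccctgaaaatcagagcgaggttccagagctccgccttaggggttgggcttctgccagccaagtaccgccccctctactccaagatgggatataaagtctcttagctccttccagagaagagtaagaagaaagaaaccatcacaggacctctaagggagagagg
Prg3: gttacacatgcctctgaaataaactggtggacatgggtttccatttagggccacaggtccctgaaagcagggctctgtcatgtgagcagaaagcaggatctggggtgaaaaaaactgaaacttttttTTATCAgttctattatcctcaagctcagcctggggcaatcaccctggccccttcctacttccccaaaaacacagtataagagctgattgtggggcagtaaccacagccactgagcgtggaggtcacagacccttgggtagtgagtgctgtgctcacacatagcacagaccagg
Il5ra: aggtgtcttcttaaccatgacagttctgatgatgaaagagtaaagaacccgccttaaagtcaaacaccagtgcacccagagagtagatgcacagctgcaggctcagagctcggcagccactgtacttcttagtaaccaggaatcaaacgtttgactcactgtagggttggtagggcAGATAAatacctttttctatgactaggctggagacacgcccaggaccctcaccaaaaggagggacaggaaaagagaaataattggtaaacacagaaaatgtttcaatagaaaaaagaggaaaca
Ccr3: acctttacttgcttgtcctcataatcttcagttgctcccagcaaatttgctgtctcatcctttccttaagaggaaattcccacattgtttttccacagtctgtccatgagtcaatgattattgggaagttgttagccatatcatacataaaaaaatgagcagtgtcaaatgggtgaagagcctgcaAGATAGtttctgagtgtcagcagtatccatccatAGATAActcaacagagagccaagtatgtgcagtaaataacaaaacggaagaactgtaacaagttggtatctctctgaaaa
The GATA spellings searched on both strands were AGATAA as well as AGATAG, and likewise TGATAA as well as TGATAG. Prg3 held 1, 123 bases before the start, Il5ra 1, 74 bases before it, and Ccr3 2, at 64 and 30 bases before it, and Epx held none. Of 32851 promoters of this length 29.8% held one. The spelling GAGGAA, a core recognised by PU.1, stood 42 bases after the start of Il5ra and 181 bases before that of Ccr3, against 28.3% of all promoters with at least one. TTGCNNAA, a spelling bound by C/EBP proteins, was in none of the 4 windows and in 10.8% of all promoters.

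Prg2 separated both Meis1 groups from the empty vector. In HOXA9+MDHD its gene values were 7.01 and 7.38 at week 4 and 7.38 and 7.50 at week 3. In HOXA9+MEIS1 they were 7.42 and 8.25 at week 4 and 7.53 and 8.01 at week 3, against 11.15 and 10.25 at week 4 and 8.86 and 9.05 at week 3 in HOXA9+MIY. All 8 Meis1 arrays lay below all 4 empty-vector arrays, and within the empty-vector group both week 4 arrays lay above both week 3 arrays. The group means were 7.32 ± 0.214 in HOXA9+MDHD, 7.80 ± 0.392 in HOXA9+MEIS1 and 9.83 ± 1.08 in HOXA9+MIY (SD, n = 4 each). Prg2 fell 5.69-fold in HOXA9+MDHD relative to HOXA9+MIY (log2 -2.51 ± 0.372, limma standard error, adjusted p = 0.00732). In HOXA9+MEIS1 it fell 4.07-fold (log2 -2.02 ± 0.372, adjusted p = 0.00366). Without the brightest array, HOXA9+MIY week 4 replicate 1, the differences were -2.11 (adjusted p = 0.0175) and -1.62 (adjusted p = 0.00575).

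Epx, the peroxidase that makes hypobromous acid from hydrogen peroxide, was also higher on all 4 HOXA9+MIY arrays, with smaller differences. In HOXA9+MDHD its gene values were 6.81 and 7.25 at week 4 and 7.04 and 7.17 at week 3. In HOXA9+MEIS1 they were 7.07 and 7.31 at week 4 and 7.20 and 7.25 at week 3, against 9.30 and 8.03 at week 4 and 7.49 and 7.43 at week 3 in HOXA9+MIY. The Meis1 groups again did not overlap with HOXA9+MIY, but the gap to its week 3 arrays was narrow. The differences were -0.99 ± 0.293 in HOXA9+MDHD (1.99-fold lower, adjusted p = 0.125) and -0.85 ± 0.293 in HOXA9+MEIS1 (1.81-fold lower, adjusted p = 0.0911), and neither was called. HOXA9+MIY week 4 replicate 1 carried much of this: without it the differences were -0.60 (adjusted p = 0.105) and -0.46 (adjusted p = 0.0877).

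Prg3 showed no called difference, although it lies beside Prg2 on chromosome 2. It had 6.54 and 6.24 at week 4 and 6.56 and 6.77 at week 3 in HOXA9+MDHD, and 6.59 and 6.68 at week 4 and 6.69 and 6.30 at week 3 in HOXA9+MEIS1, against 7.10 and 6.77 at week 4 and 6.68 and 6.60 at week 3 in HOXA9+MIY. The groups overlapped, with only HOXA9+MIY week 4 replicate 1 above 7. Its differences were -0.26 (95% interval -0.57 to 0.05) in HOXA9+MDHD and -0.22 (-0.53 to 0.09) in HOXA9+MEIS1, adjusted p = 0.476 and 0.426.

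Il5ra, the interleukin 5 receptor alpha chain, showed no called difference between conditions. It had 6.89 and 7.02 at week 4 and 6.87 and 6.46 at week 3 in HOXA9+MDHD, and 6.84 and 6.75 at week 4 and 6.50 and 6.55 at week 3 in HOXA9+MEIS1, against 6.82 and 6.69 at week 4 and 6.03 and 6.40 at week 3 in HOXA9+MIY. The groups overlapped, and the direction of the gene value, which is 1 probe set, was the opposite of that of Prg2. Its differences were 0.33 (95% interval 0.08 to 0.58, adjusted p = 0.208) in HOXA9+MDHD and 0.18 (-0.07 to 0.43, adjusted p = 0.438) in HOXA9+MEIS1. Of all 14 Il5ra probe sets 5 had lower means in HOXA9+MDHD and 9 in HOXA9+MEIS1, with 13 of the 14 under the filter.

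Ccr3, the eotaxin receptor, stood near the level of the filter in every group. Its values were 6.47 and 6.50 at week 4 and 6.14 and 6.09 at week 3 in HOXA9+MDHD, and 6.42 and 6.63 at week 4 and 6.76 and 6.33 at week 3 in HOXA9+MEIS1, against 6.88 and 6.70 at week 4 and 6.39 and 6.39 at week 3 in HOXA9+MIY. The groups overlapped. The differences were -0.29 (95% interval -0.56 to -0.03, adjusted p = 0.314) in HOXA9+MDHD and -0.05 (-0.32 to 0.21, adjusted p = 0.872) in HOXA9+MEIS1.

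**Figure D1:**
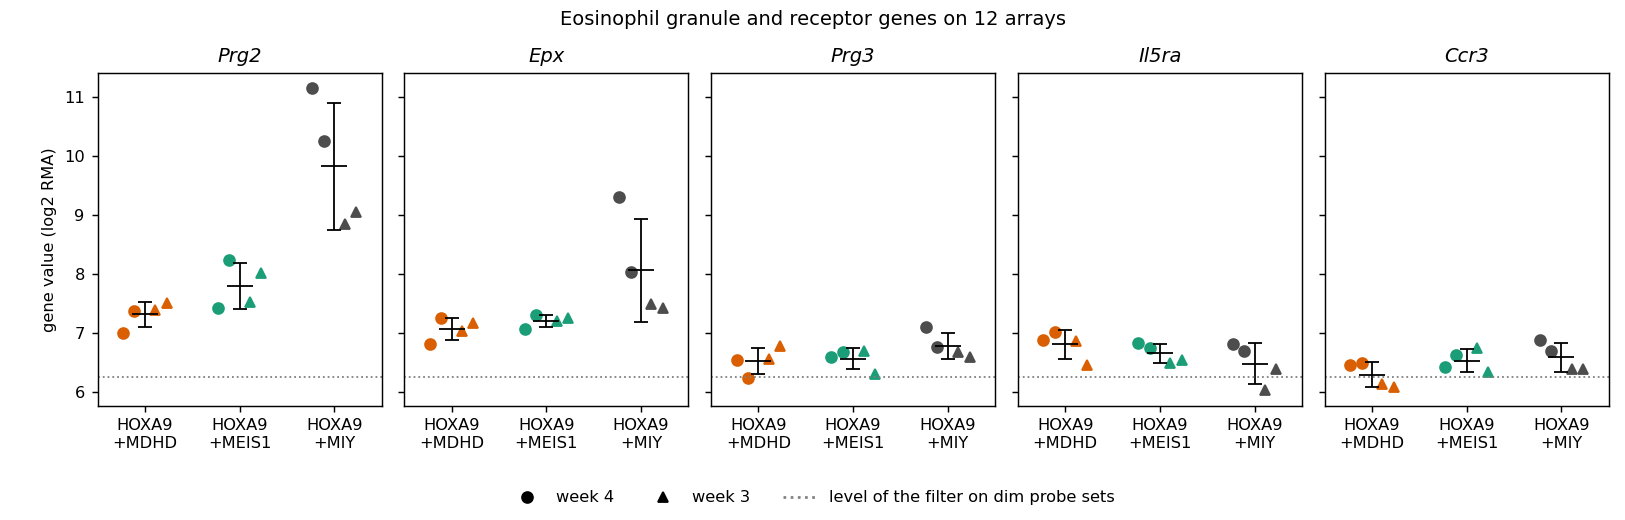
Gene values (log2 RMA signal) of the 5 genes on each of the 12 arrays, by group and week, with the group mean and SD as a bar (n = 4) and the level of the filter as a dotted line. Prg2 and Epx are highest on the 4 HOXA9+MIY arrays, most of all at week 4, while the other 3 genes overlap between groups.

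Across the 5 genes 1 was called lower in HOXA9+MDHD, where 1.03% of all genes were, and 1 in HOXA9+MEIS1, where 5.52% of all genes were; both calls were Prg2. The median difference of the 5 was -0.29 in HOXA9+MDHD and -0.22 in HOXA9+MEIS1, against -0.01 over all genes in both. The arrays of 2 of the 5, Prg2 and Epx, did not overlap with HOXA9+MIY in HOXA9+MDHD, as for 4.18% of all genes, or in HOXA9+MEIS1, as for 11% of all genes. Both comparisons share the HOXA9+MIY arrays.

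The homeodomain deletion made no called difference to any of the 5. Between HOXA9+MDHD and HOXA9+MEIS1 0 of 5 passed limma's adjusted threshold and 0 of 5 had an unadjusted p under 0.05, where 4.39% of all genes were called, and 0 of 5 had groups that did not overlap, against 5.22% of all genes. Prg2 differed by -0.48 (95% interval -1.29 to 0.33), Epx by -0.14 (-0.78 to 0.50), Prg3 by -0.04 (-0.34 to 0.27), Il5ra by 0.15 (-0.10 to 0.40) and Ccr3 by -0.24 (-0.50 to 0.03). For Prg2 the interval spans differences in both directions, so the order of the levels was HOXA9+MDHD, HOXA9+MEIS1 and HOXA9+MIY with the first 2 not separated beyond their spread.

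The probe sets of Prg2 and Epx, which read different stretches of each transcript, mostly moved in 1 direction. Of the 7 of Prg2, 6 were called lower in HOXA9+MDHD and the same number in HOXA9+MEIS1. The exception, 4513389, was dim in every group, at 5.06, 4.85 and 4.84 in HOXA9+MDHD, HOXA9+MEIS1 and HOXA9+MIY. Prg2 probe set 5073942 read 6.09 and 7.07 at week 4 and 6.61 and 6.96 at week 3 in HOXA9+MDHD, and 6.24 and 8.05 at week 4 and 6.86 and 7.88 at week 3 in HOXA9+MEIS1. It read 11.66 and 10.95 at week 4 and 9.07 and 9.44 at week 3 in HOXA9+MIY, above every Meis1 array, and fell by 3.60 in HOXA9+MDHD (adjusted p = 0.00126) and by 3.02 in HOXA9+MEIS1 (adjusted p = 4.49e-04). The called Prg2 probe sets differed in size, down to -1.05 and -0.95 for 5402363, which had 8.51 in HOXA9+MDHD, 8.61 in HOXA9+MEIS1 and 9.55 in HOXA9+MIY.

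All 16 Epx probe sets had lower means in both Meis1 groups. Of them 5 were called in HOXA9+MDHD and 8 in HOXA9+MEIS1, although the gene value was called in neither. Probe set 4919286 averaged 5.06 in HOXA9+MDHD and 5.60 in HOXA9+MEIS1, both under the level of the filter, against 7.72 in HOXA9+MIY, which makes it at least 2.75-fold lower in each Meis1 group. Probe set 4993556 was bright on all arrays, with 9.99, 10.07 and 10.59 in HOXA9+MDHD, HOXA9+MEIS1 and HOXA9+MIY, and its differences of -0.60 and -0.52 were called too. The array HOXA9+MIY week 4 replicate 1 had the highest value of the 12 for 15 of the 16 Epx and 6 of the 7 Prg2 probe sets.

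Of the 9 probe sets of Prg3, 14 of Il5ra and 4 of Ccr3, 0 were called by limma in either Meis1 group. At an unadjusted p under 0.05, 3 of Prg3 passed in HOXA9+MDHD and 0 in HOXA9+MEIS1, 0 of Il5ra in either, and 0 and 1 of Ccr3. All 9 of Prg3 had lower means in HOXA9+MDHD, and 7 of 9 in HOXA9+MEIS1. Most of these probe sets lay under the filter, 5 of 9, 13 of 14 and 3 of 4, so a difference in Il5ra or Ccr3 rests on little signal. Over the 5 genes, 11 of 50 probe sets were called lower in HOXA9+MDHD, against 0.534% of all 318760 named probe sets. In HOXA9+MEIS1 14 of 50 were, against 3.5%. All of these belong to Prg2 and Epx, and probe sets of the same gene on the same arrays are not independent readings.

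**Figure D2:**
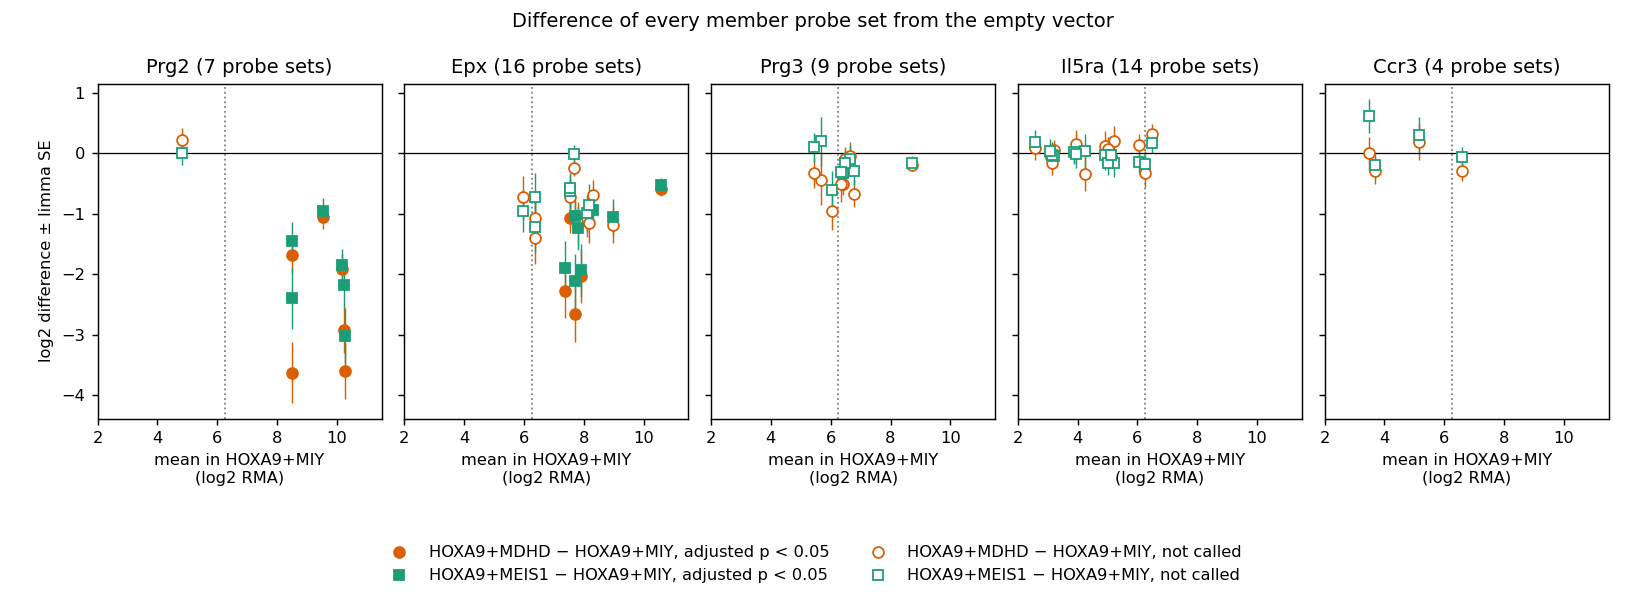
Log2 difference (± limma standard error) of every probe set of the 5 genes between each Meis1 group and HOXA9+MIY, against its mean log2 signal in HOXA9+MIY, with filled marks where the adjusted p was under 0.05 and the filter level dotted. Called probe sets occur in Prg2 (6 of 7 in both groups) and Epx (5 and 8 of 16) and in 0 of the other 27.

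Within single groups, differences between the weeks were called for the 5 genes only in HOXA9+MIY, but no interaction with week was called. Over all 12 arrays 1 of the 5 was called higher at week 4 than at week 3, where 11.7% of all genes were, and this was Il5ra (log2 0.37 ± 0.0938, 1.29-fold, adjusted p = 0.00734). The median week difference of the 5 was 0.36, against -0.02 over all genes. Within HOXA9+MIY 3 of the 5 were called higher at week 4, against 3.69% of all genes. Prg2 averaged 10.70 at week 4 and 8.95 at week 3 (3.36-fold, adjusted p = 0.00414), Epx 8.67 and 7.46 (2.31-fold, adjusted p = 0.0223) and Il5ra 6.75 and 6.21 (1.45-fold, adjusted p = 0.0427), with 2 arrays each. Of their probe sets 6 of Prg2, 11 of Epx and 0 of Il5ra were called higher at week 4 in HOXA9+MIY. This was 17 of the 50 in all, where 2.26% of named probe sets were, and probe sets of the same gene are not independent. The probe set behind the Il5ra value was not called in the probe set fit (limma, adjusted p = 0.178). Within HOXA9+MDHD and within HOXA9+MEIS1 limma called 0 of 5, with 1 and 0 at an unadjusted p under 0.05. Of all genes 19.2% and 28.2% were called by week there. Prg2 had week differences of -0.25 and 0.06 in these groups. Il5ra had 0.29 and 0.27, against 0.54 in HOXA9+MIY.

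The distance from the empty vector was examined within each week. Prg2 differed by -3.51 in HOXA9+MDHD (11.4-fold lower, adjusted p = 0.00238) and by -2.87 in HOXA9+MEIS1 (7.29-fold lower, adjusted p = 7.67e-04) at week 4. At week 3 it differed by -1.51 (2.85-fold, adjusted p = 0.0867) and -1.18 (2.27-fold, adjusted p = 0.0790), which were called when week 3 arrays were fitted alone (adjusted p = 0.0170 and 0.0121). Epx at week 4 differed by -1.63 in HOXA9+MDHD (limma, unadjusted p = 4.20e-04, adjusted p = 0.123). In HOXA9+MEIS1 it was called at -1.48 (2.79-fold lower, limma, unadjusted p = 8.66e-04, adjusted p = 0.0210), though not with week 4 arrays alone. The adjustment depends on all genes of a comparison, and 22 were called at week 4 in HOXA9+MDHD, against 1398 in HOXA9+MEIS1. At week 3 the Epx values were -0.35 and -0.23. In HOXA9+MDHD 1 of 5 was called lower at week 4, against 0.0483% of all genes, and 0 of 5 at week 3 (2 at an unadjusted p under 0.05), against 0.14%. In HOXA9+MEIS1 the counts were 2 of 5 at week 4, against 3.85%, and 0 of 5 at week 3 (1 at an unadjusted p under 0.05), against 2.31%.

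The difference between the weeks was tested as an interaction. Week 4 minus week 3, the difference of Prg2 from HOXA9+MIY changed by -2.0 in HOXA9+MDHD (limma, adjusted p = 0.676) and by -1.68 in HOXA9+MEIS1 (95% interval -2.68 to -0.68, adjusted p = 0.515). For Epx the values were -1.28 (adjusted p = 0.983) and -1.25 (adjusted p = 0.697). No interaction was called for the 5 genes, with 3 and 2 of them at an unadjusted p under 0.05, and limma called 0% of all genes in either comparison, with 1011 and 1358 of 20711 at an unadjusted p under 0.05. A difference between the weeks is therefore not shown for any of the 5 after adjustment.

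**Figure D3:**
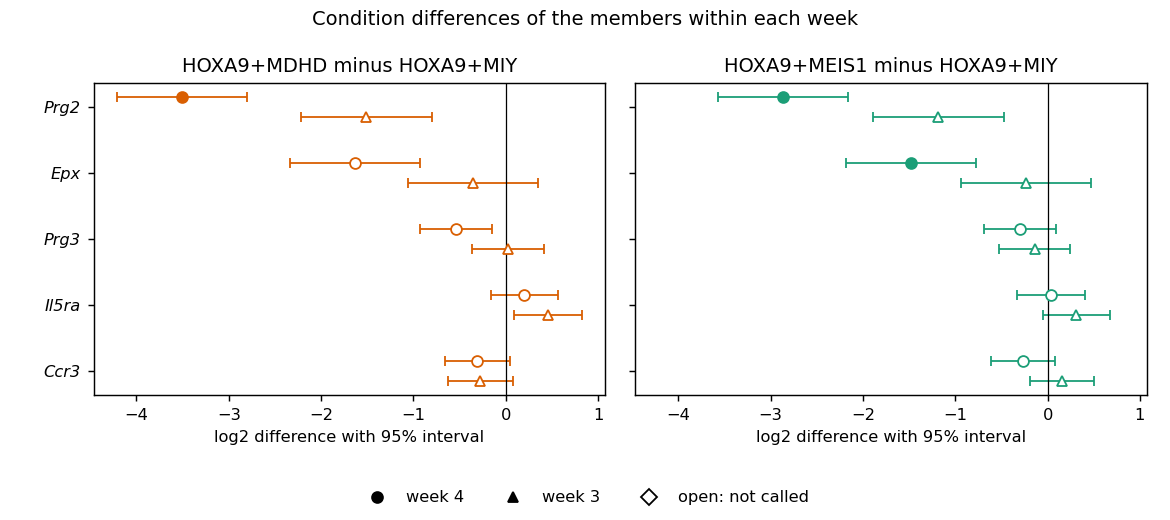
Log2 difference of the 5 genes between each Meis1 group and HOXA9+MIY within week 4 and within week 3, with the 95% interval of the limma fit and filled marks where the difference was called (2 arrays per group and week). Prg2 and Epx lie farther below 0 at week 4 than at week 3 in both panels, while Prg3, Il5ra and Ccr3 lie within 1 of 0.

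The remaining granule genes on the list were the Ear ribonucleases, eosinophil-associated RNases that arose by repeated duplication. Ear1, Ear3, Ear4, Ear7 and Ear12 were not listed by symbol on the arrays and could not be assessed. Of the others only Ear6 had probe sets above the filter. Its gene value was 6.51 and 6.68 at week 4 and 6.31 and 6.80 at week 3 in HOXA9+MDHD, and 6.65 and 6.50 at week 4 and 6.55 and 6.68 at week 3 in HOXA9+MEIS1, against 8.04 and 6.99 at week 4 and 6.68 and 6.83 at week 3 in HOXA9+MIY. The same array as for Prg2 and Epx was highest, the groups overlapped, and the differences of -0.56 and -0.54 were not called (adjusted p = 0.284 and 0.170). A probe set each of Ear6 (5288668) and Ear2 (4718521) was called lower in both Meis1 groups. The Ear6 one had a mean under the filter in every group and the Ear2 one in both Meis1 groups, so no size is given. Because Ear genes are near-identical copies, signal may be shared between them and the assignment is uncertain. The log2 of the summed linear values of Prg2, Epx, Prg3 and Ear6 was 8.73 to 9.09 in HOXA9+MDHD, 8.97 to 9.35 in HOXA9+MEIS1 and 9.73 to 11.69 in HOXA9+MIY.

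Genes of the interleukin 5 and eotaxin axis were compared between conditions. Of 12 measured, Il5ra and Ccr3 among them, 0 rose and 1 fell in HOXA9+MDHD, and 1 rose and 1 fell in HOXA9+MEIS1. Of all 20711 genes 195 rose and 214 fell in HOXA9+MDHD, and 1088 rose and 1143 fell in HOXA9+MEIS1. The median differences of the 12 were -0.01 and 0.01, against -0.01 and -0.01 over all genes. Csf2ra, the alpha chain of the GM-CSF receptor, fell by 0.53 in HOXA9+MDHD (adjusted p = 0.0166) and by 0.93 in HOXA9+MEIS1 (adjusted p = 5.47e-05). Stat5b, a transducer of these receptors, rose by 0.21 in HOXA9+MEIS1 (adjusted p = 0.0111). Csf2rb, the beta chain that signals for Il5ra, had 11.66 in HOXA9+MDHD, 11.78 in HOXA9+MEIS1 and 11.67 in HOXA9+MIY and was not called. The ligand genes Il5, Ccl11 and Ccl24 had differences of -0.20 to 0.02 and were not called either. By week, 7 of the 12 rose at week 4 relative to week 3, where 11.7% of all genes rose. Among the 7 were Jak2 (0.54, adjusted p = 1.81e-04) and Stat5b (0.33, adjusted p = 1.79e-05).

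Other eosinophil surface and enzyme genes were called mainly in HOXA9+MEIS1. In HOXA9+MDHD 1 of 15 rose and 0 fell, with a median of -0.01, where 195 of all 20711 genes rose and 214 fell. In HOXA9+MEIS1 1 of 15 rose and 5 fell, with a median of -0.26, where 1088 of all genes rose and 5.52% fell. The riser was Emr1, which encodes a surface antigen of macrophages and mouse eosinophils, by 0.60 in HOXA9+MDHD (adjusted p = 0.00872) and 1.06 in HOXA9+MEIS1 (adjusted p = 2.22e-05). C3ar1, the receptor of complement C3a, fell by 2.84 in HOXA9+MEIS1 (adjusted p = 1.17e-05), where Il13ra1 fell by 2.19 (adjusted p = 1.70e-05) and Cd300lf, an inhibitory receptor of myeloid cells, by 1.30 (adjusted p = 5.76e-05). All of these genes are also expressed in monocytes or macrophages. Siglec5, Ptgdr2 (listed as Gpr44) and Alox15 were not called, with differences of -0.26 to 0.07.

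Among 16 regulators of the lineage 1 rose and 0 fell in HOXA9+MDHD, with a median of -0.12, and 2 rose and 4 fell in HOXA9+MEIS1, with a median of -0.06. Gata1 had 7.17 in HOXA9+MDHD, 7.10 in HOXA9+MEIS1 and 7.16 in HOXA9+MIY and was not called (differences 0.01 and -0.06). Spi1, which encodes PU.1, fell by 0.41 in HOXA9+MEIS1 (adjusted p = 9.27e-05) and differed by -0.15 in HOXA9+MDHD (adjusted p = 0.135). Cebpb fell by 0.52 in HOXA9+MEIS1 (adjusted p = 0.00143) and differed by -0.10 in HOXA9+MDHD, while Cebpa and Cebpe were called in neither comparison. Zfpm1, which encodes the Gata1 cofactor FOG1, rose by 0.61 in HOXA9+MDHD (adjusted p = 0.0129) and by 0.76 in HOXA9+MEIS1 (adjusted p = 4.40e-04). Gata2 rose by 1.02 in HOXA9+MEIS1 (adjusted p = 0.00725) and differed by 0.83 in HOXA9+MDHD (adjusted p = 0.0753). Id2, which blocks helix-loop-helix factors, fell by 1.47 (adjusted p = 2.07e-04) and Irf8, a factor of monocyte fate, by 0.90 (adjusted p = 3.78e-04) in HOXA9+MEIS1. Over the 42 genes of the 4 eosinophil lists other than the 5, 2 rose and 1 fell in HOXA9+MDHD and 4 rose and 10 fell in HOXA9+MEIS1. Of all 20711 genes 195 rose and 214 fell in HOXA9+MDHD, and 1088 rose and 1143 fell in HOXA9+MEIS1.

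**Figure D4:**
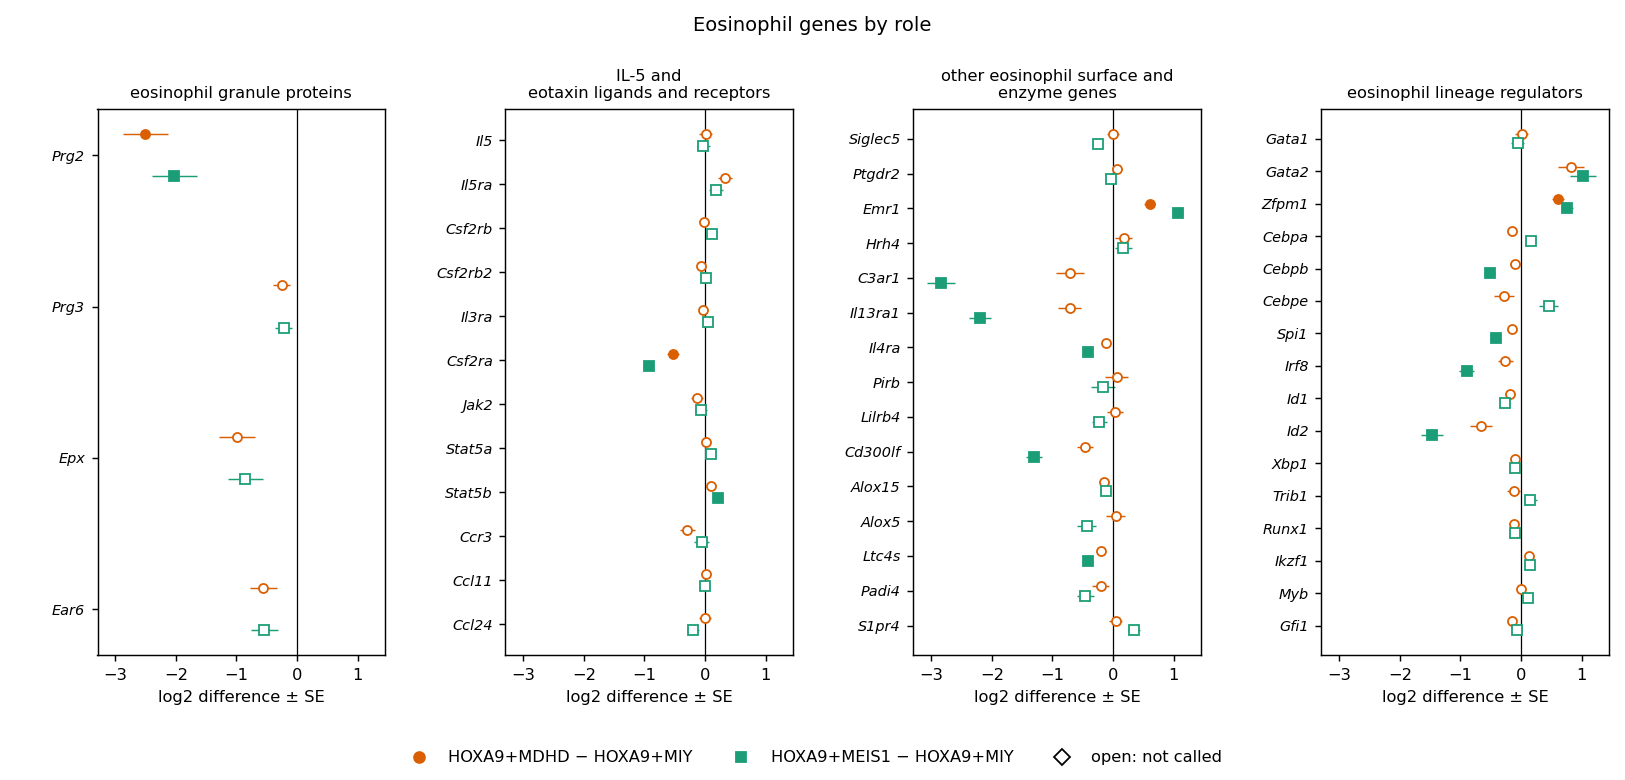
Log2 differences (± limma standard error) from HOXA9+MIY of the measured genes of the 4 eosinophil lists, HOXA9+MDHD as circles and HOXA9+MEIS1 as squares, filled where called. Prg2 lies at -2.51 and -2.02, while most genes of the receptor and regulator lists lie within 1 of 0.

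Markers of other cells moved beside the granule genes, and their part in the result was not tested. Over all 20711 genes 195 rose and 214 fell in HOXA9+MDHD, and 1088 rose and 1143 fell in HOXA9+MEIS1. Of 19 neutrophil genes 7 fell in HOXA9+MDHD and 15 in HOXA9+MEIS1, with log2 sums of 15.33 to 16.12, 15.35 to 15.50 and 16.10 to 16.39 in HOXA9+MDHD, HOXA9+MEIS1 and HOXA9+MIY, and S100a9, a calcium-binding protein of neutrophils, was at 9.57, 7.18 and 11.27. Of 17 monocyte and macrophage genes 4 fell in HOXA9+MDHD and 15 in HOXA9+MEIS1, with sums of 13.84 to 14.66, 12.83 to 13.12 and 14.56 to 14.71. For both lists 0 rose. Of 13 stem and early progenitor genes 7 rose and 1 fell in HOXA9+MDHD, and 8 rose and 2 fell in HOXA9+MEIS1. Of 12 erythroid and megakaryocyte genes 1 rose and 0 fell in HOXA9+MDHD, and 1 rose and 2 fell in HOXA9+MEIS1. Of 13 lymphoid genes 0 were called in HOXA9+MDHD and 2 fell in HOXA9+MEIS1.

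Mast cells and basophils, which also grow in IL3 and carry some eosinophil transcripts, gave 1 lower of 17 in each Meis1 group and 0 higher. Of all genes 1.03% were lower in HOXA9+MDHD and 5.52% in HOXA9+MEIS1. The lower list gene in HOXA9+MDHD was Prss34, a basophil protease (-0.60, adjusted p = 0.0213), and that in HOXA9+MEIS1 was Mitf (-0.43, adjusted p = 0.00715). The sums overlapped, at 14.07 to 14.64 in HOXA9+MDHD, 14.26 to 14.34 in HOXA9+MEIS1 and 14.12 to 14.35 in HOXA9+MIY. By week, over all 12 arrays, 5 of the 17 fell at week 4, where 28.1% of all genes fell, and 1 rose. The largest of these falls was that of Fcer1a, the IgE receptor alpha chain (-2.04, adjusted p = 7.58e-04).

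The genes most like Prg2 and Epx over the 12 arrays were each other and a common set of 4. Among 675 genes with an SD of at least 0.5, Epx was first for Prg2 (Pearson's r = 0.928, and 0.947 without HOXA9+MIY week 4 replicate 1) and Prg2 first for Epx. Next for Prg2 came Fpr1 (0.905), Prr15 (0.880), Il1f9 (0.865) and Fpr2 (0.848), and the same 4 took the next places for Epx at 0.845 to 0.790. Without HOXA9+MIY week 4 replicate 1 these 4 dropped to 0.844, 0.818, 0.781 and 0.749 for Prg2. For Epx they were then at 0.836 to 0.710. Fpr1 and Fpr2 encode formyl peptide receptors of phagocytes and Il1f9 an interleukin 1 family cytokine. Fpr1 had 7.12 and 7.65 at week 4 and 6.82 and 6.61 at week 3 in HOXA9+MDHD, and 6.91 and 6.84 at week 4 and 6.94 and 7.04 at week 3 in HOXA9+MEIS1, against 9.13 and 8.98 at week 4 and 7.73 and 8.03 at week 3 in HOXA9+MIY. All HOXA9+MIY arrays lay above all Meis1 arrays and were highest at week 4, while the Meis1 groups overlapped with each other; Fpr1 was picked for its likeness to Prg2. Il1f9 fell by 1.34 in HOXA9+MDHD and by 1.52 in HOXA9+MEIS1 (limma, adjusted p = 0.00417 and 1.12e-04). It too was picked for its likeness to Prg2 on these arrays, which favours genes that fall with Prg2. All of these arrays share the group and week differences, so the correlations describe the 12 arrays only.

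The highest correlations of the other 3 genes were below that between Prg2 and Epx. For Prg3 the closest were Epx (0.707) and Prg2 (0.672), which dropped to 0.326 and 0.388 without HOXA9+MIY week 4 replicate 1, then Hnmt, Serpinb9g and Olfr1328. For Il5ra they were Olfr1015 (0.806), H2-Ob (0.788), Perp (0.757), Olfr1180 (0.750) and Cd244 (0.732), and for Ccr3 Ptprf (0.837), Rab33a (0.830), Mogat2 (0.738), Ecm1 (0.711) and Mgll (0.710). Without the same array the first of each, Olfr1015 and Ptprf, stood at 0.916 and 0.804. Between the receptors and Prg2 the correlations were -0.181 for Il5ra and 0.581 for Ccr3. Without HOXA9+MIY week 4 replicate 1 they were -0.444 and 0.343.

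**Figure D5:**
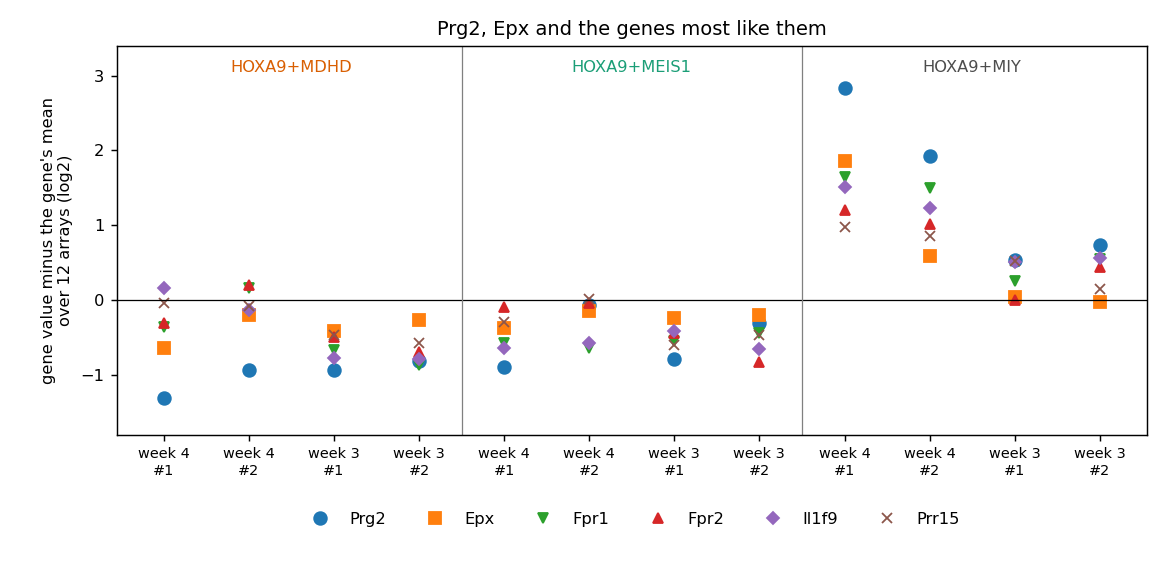
Gene value of Prg2, Epx and the 4 genes most like both, minus the mean of each gene over the 12 arrays (log2), on every array by group and week. All 6 are highest on the 2 HOXA9+MIY week 4 arrays.

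The neighbours of Prg2 showed no called fall. In the RefSeq order of coding genes Prg2 lies between Slc43a3 and Prg3, with P2rx3 next after Prg3. P2rx3, an ATP-gated ion channel, averaged 8.17 ± 0.675 in HOXA9+MDHD, 10.71 ± 0.164 in HOXA9+MEIS1 and 7.77 ± 0.243 in HOXA9+MIY (SD, n = 4 each). It rose 7.69-fold in HOXA9+MEIS1 relative to HOXA9+MIY (adjusted p = 1.26e-05), the opposite direction to Prg2, and was not called in HOXA9+MDHD (0.40, adjusted p = 0.535). Slc43a3, an amino acid transporter family gene, rose by 0.30 in HOXA9+MEIS1 (adjusted p = 0.0153) and differed by 0.01 in HOXA9+MDHD. The run of Slc43a3, Prg2, Prg3 and P2rx3 thus held a called fall and called rises in HOXA9+MEIS1, and only the fall in HOXA9+MDHD. Beside Epx on chromosome 11, Mks1, a gene of the primary cilium, fell by 0.23 in HOXA9+MEIS1 (adjusted p = 0.0355) and differed by -0.14 in HOXA9+MDHD (adjusted p = 0.351). The measured neighbours of Il5ra and Ccr3 were not called in either comparison.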

How the data were processed

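RNA of 12 samples was measured on Affymetrix mouse exon arrays, with 1 array per sample. Per the submitters' processing notes, the authors used RMA in Affymetrix Expression Console to make the deposited log2 values per exon-level probe set, and versions, build and annotation are not given in the sources used here. RMA subtracts background and normalizes the arrays together, so differences at dim probe sets are compressed.

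Of 1256831 probe sets, 318760 named 1 gene symbol. Those with a mean over 12 arrays above log2 6.26, the 50th percentile of all, were summarised per gene by median polish, which gave 20711 genes. A linear model with condition and week was fitted to all arrays with limma 3.58.1 in R 4.3.3 (lmFit, eBayes with trend, two-sided), with Benjamini-Hochberg adjustment over all genes and calls under 0.05. A fit with 1 mean per condition and week gave the within-week values and interactions, and a fit on all named probe sets the probe set results. Errors after ± are limma standard errors unless given as SD. Folds written as at least a value take the filter level for each array under it, in a group whose mean lay under it. The procedure was tested on simulated data for HOXA9+MDHD against HOXA9+MIY and recovered 95% of genes changed by log2 1 and all of those changed by log2 2. The changed genes were drawn at random and carried independent normal noise with each gene's own spread. These rates are averages over genes and need not hold for Prg2 and Epx, whose standard errors were 0.372 and 0.293.

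Members and lists were chosen with earlier results of these data known. Genes named from the lists were up to 4 called in a condition contrast with the largest difference. For likeness they were the 5 highest correlations. Genes named by week, Spi1, Cebpb, uncalled list genes, the Ear genes and the chromosome neighbours were added after their values were seen. The number of arrays limits the precision. Alternatives covered the probe set summary, filter, normalization, week term, replicate block, variance model, the weeks and groups singly and each array left out.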

Additional observations from a re-analysis of the deposited data

How the results depend on the processing

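Prg2 kept its called fall in both Meis1 groups under all 12 alternatives of processing, model and samples, with differences of -3.51 to -1.51 in HOXA9+MDHD and -2.87 to -1.18 in HOXA9+MEIS1, and with 1 array left out of -2.77 to -2.11 and -2.29 to -1.62. The count of called members in HOXA9+MEIS1 was 2 with the mean of the probe sets (Epx -0.89, adjusted p = 0.0407) and 2 with the stricter filter (Epx -0.96, adjusted p = 0.0306, 3 genes measured). For Epx in HOXA9+MEIS1 adjusted p ranged over the alternatives up to 0.291. The count for week 4 over week 3 was 0 with the stricter filter, where Il5ra was not measured, 2 without the trend in eBayes (Ccr3 0.25, adjusted p = 0.0455), 0 within HOXA9+MDHD, 0 within HOXA9+MEIS1 and 3 within HOXA9+MIY. With 1 array left out it was 1 to 2, the second being Ccr3 at 0.34 without HOXA9+MEIS1 week 3 replicate 1 and 0.31 without HOXA9+MEIS1 week 4 replicate 1. The cause was not tested. The replicate numbers did not pair the arrays: matched arrays correlated at -0.316 to -0.015 after condition and week were removed, and 0 of 12 correlated best with their own number. With a replicate block Prg2 stayed at -2.51 (adjusted p = 0.0160) and -2.02 (adjusted p = 0.00936), with 1 member called in each and 1 by week. Of 746 alternative values for single members, 737 kept their direction or lay uncalled as before, 9 crossed the threshold and 0 called values reversed. Signal near the filter limits Il5ra and Ccr3, which rest on 1 probe set each.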
